A study of Saccharomyces cerevisiae with 12 samples.

Results

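The genes described here are 60 yeast ribosome biogenesis genes, followed in wild-type cells that grew in medium already used by another culture. They were chosen by name, as genes with a known part in making ribosomes, at a time when earlier results of these data were known. The rule uses no measured value, but the list is not a blind choice. Each of the 60 matched exactly 1 probe by its symbol in the platform's annotation, out of 6388 gene probes on the array, of which 5326 carry a symbol.

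Ribosome biogenesis genes encode proteins that are mostly absent from the finished ribosome. They transcribe, modify, cut and fold the ribosomal RNA precursor in the nucleolus, and they assemble it with ribosomal proteins into the small (40S) and large (60S) subunits. Box C/D and box H/ACA snoRNPs are protein and small RNA particles that methylate the precursor or convert its uridines to pseudouridine. The small subunit forms first within the 90S pre-ribosome, also called the small subunit processome, which holds the U3 RNA and the UTP complexes. The large subunit passes through nucleolar, nuclear and cytoplasmic stages with the help of helicases and GTPases. In budding yeast, the mRNAs of these genes are known for moving together, rising with rich nutrients and fast growth and falling under stress.

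The question of the study was whether medium left behind by slow growing deletion mutants acts on the transcripts of normal cells. Wild-type BY4742 cells, a haploid laboratory strain, went through 2 doublings in filtered synthetic complete (2% glucose) medium in which another culture had already doubled 2 times. That other culture lacked CBF1, NPL3, BUR2 or CHO2, or was wild type. The cells whose RNA was measured carried none of these deletions. Set 1 comprised cbf1 medium and npl3 medium beside their own wild-type medium, and set 2 comprised bur2 medium and cho2 medium beside another wild-type medium. The sets are those named by the titles of the samples, and everything else that differed between them cannot be told apart from the set. Each of the 6 groups had 2 spotted arrays, 12 in all, and each array compared a sample with RNA from a single large wild-type culture, the reference. Array 1 of a group had the sample in Cy3 and array 2 had it in Cy5, so the array number and the dye cannot be told apart. The series text speaks of independent cultures, whereas the study's methods leave room for 1 RNA labelled with both dyes, so n counts arrays and p-values measure the spread between arrays, which may be technical.

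Values are log2 ratios of sample over reference. A difference is a medium minus its wild-type medium on that scale, so 0.29 corresponds to 1.22-fold. Unless a permutation is named, tests are limma fits across all 12 arrays with a term for the dye, two-sided, with Benjamini-Hochberg adjustment over all 6388 gene probes. A gene is said to be called where its adjusted p was at most 0.05. Each SE is that of the limma fit. It rests on the spread left after the 6 group means and the dye term, so spread between media and between dyes is outside it. All 60 genes gave signals more than 2 times their background in both channels and both duplicate spots on all 12 arrays. Their median signal was 13.9 times background, against 5.05 times over all gene probes. In set 1 the array medians of the spot signal were 327 to 507 for Cy5 and 254 to 367 for Cy3, and in set 2 they were lower, at 185 to 264 for Cy5 and 170 to 193 for Cy3. The 4 genes that mark alpha cells lay at median signals of 37 to 211 times background in this alpha strain, and the 6 markers of a cells lay at 1.22 to 2.14 times. Of the marker genes altered in BY4742, URA3, LEU2, LYS2 and HIS3 lay at 1.06, 1.13, 1.89 and 3.63 times background.

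Relative to the other transcripts on each array, ribosome biogenesis mRNAs stood higher in cells of every used medium than in the reference. Of the 60 genes, 59 had a mean log2 ratio above 0, and 55 were called higher and 0 lower. Over all gene probes, 34.4% were called higher and 35.6% lower, so a call by itself was common, whereas every call among the 60 was in the same direction. The median of their 12-array means was 0.29 (1.22-fold), against -0.0034 over all gene probes. On all 12 arrays, 46 of the 60 lay above 0 and none below 0 throughout, where 19.2% of all gene probes lay above 0 on every array. Ranked by mean, 29 of the 60 were among the top 5% of probes and 41 among the top 10%. Since the reference was 1 RNA from 1 culture, its own spread is left out of these errors. In whole-culture RNA, a change in the share of cells that express a gene and a change in the RNA per cell cannot be told apart.

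The excess over the reference was present on each array, but its size varied from array to array. The median of the 60 genes was 0.37 and 0.37 on arrays 1 and 2 of cbf1 medium, 0.47 and 0.35 of npl3 medium, and 0.21 and 0.44 of the wild-type medium of set 1. It was 0.26 and 0.22 for bur2 medium, 0.25 and 0.25 for cho2 medium, and 0.25 and 0.20 for the wild-type medium of set 2. The lowest and the second highest of the 6 medians in set 1 thus both came from wild-type medium. Between 49 genes (wild-type medium of set 1, array 1) and 60 genes (npl3 medium, array 1) lay above 0 on a single array. Single genes also varied with the dye. The fitted Cy5 minus Cy3 effects of the 60 genes ran from -0.27 (NOP53) to 0.29 (ENP1), with a median of -0.022. NOP53 averaged 0.73 with the sample in Cy3 and 0.46 in Cy5, and ENP1 averaged 0.027 and 0.32. NOP1, though called higher than the reference, averaged -0.025 in Cy3 and 0.22 in Cy5. These genes were picked after their values were seen, and the ranges over 12 arrays below include the dye.

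**Figure D1:**
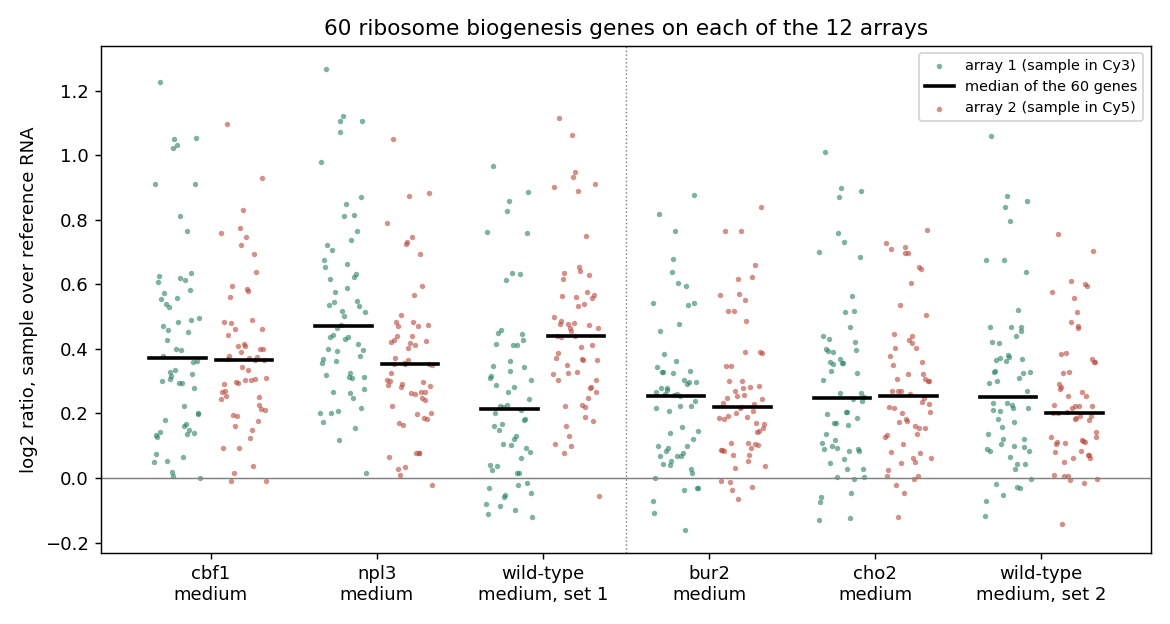
Log2 ratio of sample over reference for each of the 60 ribosome biogenesis genes (points) on the 12 arrays, grouped by medium, with array 1 in green and array 2 in red, and the median of the 60 genes as a black bar. All 12 medians lie above 0, between 0.20 and 0.47, and the wild-type arrays of set 1 lie as far apart as 0.21 and 0.44.

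The size of the excess varied with the role of the gene. Factors of the 60S subunit stood highest, with a median of means of 0.43 for the 23 early nucleolar factors and 0.42 for the 4 late factors and GTPases. The Mpp10 complex (0.37, 3 genes) and the other 90S and 40S factors (0.31, 12 genes) followed. The box H/ACA proteins (0.22, 4 genes), the UTP-A complex (0.15, 6 genes), the UTP-B and UTP-C complexes (0.15, 5 genes) and the box C/D proteins (0.097, 3 genes) were lowest. On 12 of 12 arrays the median of the early 60S factors exceeded those of the UTP-A, UTP-B and UTP-C, box C/D, box H/ACA and other 90S and 40S groups. It exceeded that of the Mpp10 complex on 8 arrays and that of the late 60S factors on 7 arrays, so the order among these 3 groups was not stable across arrays. These are descriptions of groups chosen by function, with no test between them.

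**Figure D2:**
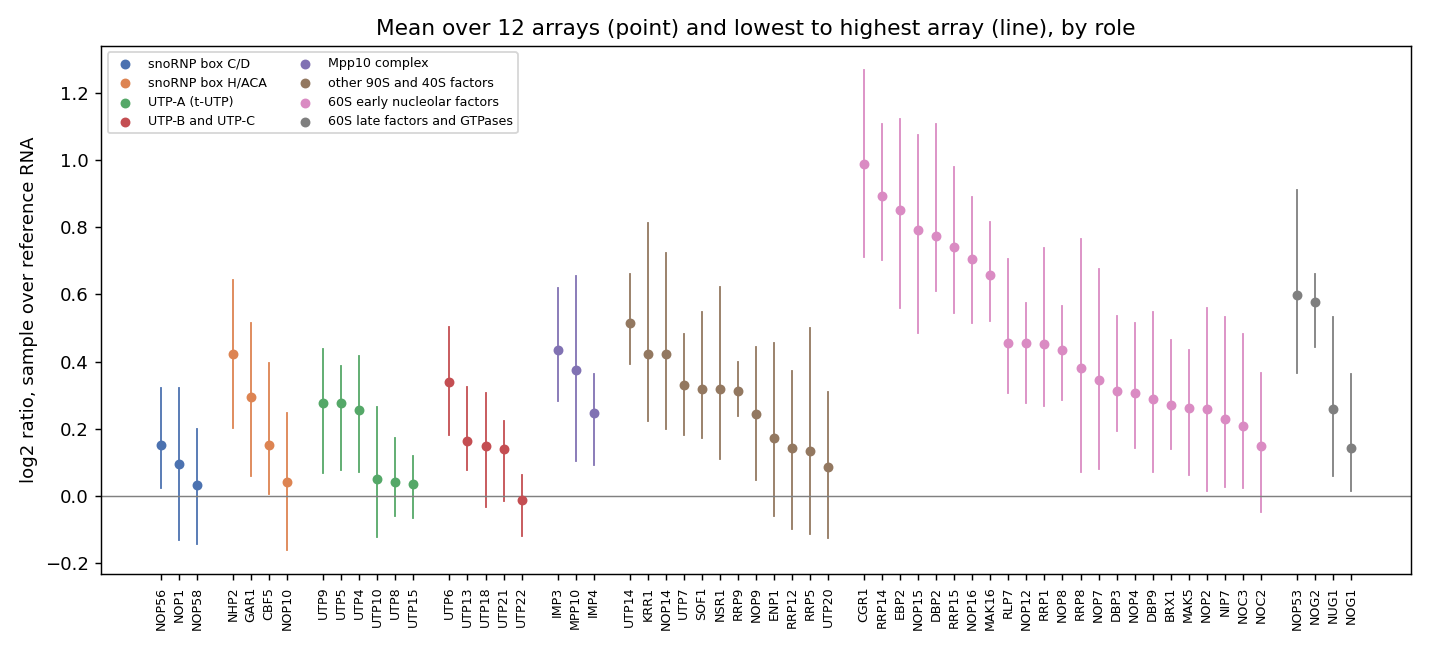
Mean log2 ratio of sample over reference (point) and the range from the lowest to the highest of the 12 arrays (line) for each of the 60 genes, ordered within 8 role groups shown by colour. The 8 genes with the highest means, CGR1 at 0.99 to MAK16 at 0.66, were all assigned here to the early nucleolar 60S group, though RRP14 and DBP2 also have other roles. UTP22 has the one mean below 0.

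Among the early factors of the large subunit, CGR1 had the highest mean of all 60 genes. CGR1, a nucleolar protein needed to process the large subunit's RNA, ranged from 0.71 to 1.27 over the 12 arrays with a median of 1.03, and its mean of 0.99 ± 0.029 (SE, 12 arrays) corresponds to 1.98-fold (limma, adjusted p = 4.08e-08). It ranked sixth among all gene probes by mean and stayed among the first 4 of the 60 on every array. RRP14, a nucleolar protein that takes part in making both subunits, ranged from 0.70 to 1.11 with a median of 0.89, and its mean of 0.89 ± 0.016 gave the smallest p of the 60 genes (limma, adjusted p = 3.23e-09). EBP2, which is required for assembly of the pre-60S particle, had a mean of 0.85, the RNA-binding protein NOP15 one of 0.79, and the RNA helicase DBP2, which also acts on mRNA, one of 0.77. RRP15 (0.74), NOP16 (0.71) and MAK16 (0.66) completed the 8 highest means. EBP2, NOP15, DBP2 and NOP16 were singled out after their values were seen, and the ranges of neighbours in this order overlapped, as for EBP2 (0.56 to 1.12) and NOP15 (0.48 to 1.07). At the other end of the group, NOC2, part of a transport complex of pre-60S particles, ranged from -0.048 to 0.37 with a median of 0.18 and a mean of 0.15 ± 0.029 (limma, adjusted p = 0.00153). All 23 early factors were called higher than the reference, and 22 of them lay above 0 on all 12 arrays.

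The 4 late 60S factors were also all called. NOP53, which brings the RNA exosome's helicase to the pre-60S particle, ranged from 0.37 to 0.91 with a median of 0.55 and a mean of 0.60 ± 0.021 (limma, adjusted p = 9.53e-08). The GTPase NOG2 had the narrowest range of the 11 genes with a mean over 0.5, running from 0.44 to 0.66 with a median of 0.60 and a mean of 0.58 ± 0.015 (limma, adjusted p = 2.28e-08). Its relative NOG1, another GTPase of the 60S pathway, had the lowest mean of the group at 0.14 ± 0.026, with arrays from 0.015 to 0.36 and a median of 0.10 (limma, adjusted p = 0.00101). The ratios of NOG1 and NOG2 thus stood apart by more than their whole ranges, since the highest array of NOG1 was below the lowest of NOG2. The median signal of NOG1 was 2.82 times background, however, against 14.1 times for NOG2. The offset added after background correction shrinks the ratios of dim spots. How far this lowered the ratios of NOG1 was not tested, so the gap holds for the measured ratios only.

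In the small subunit pathway, UTP14 stood highest and UTP22 lowest. UTP14, which activates a helicase of the 90S particle, ranged from 0.39 to 0.66 with a median of 0.48 and a mean of 0.51 ± 0.024 (limma, adjusted p = 3.33e-07), whereas UTP20, a large scaffold protein, ranged from -0.12 to 0.31 with a mean of 0.088 ± 0.031 (limma, adjusted p = 0.0297). The call of UTP20 was lost when any of 6 arrays was left out: array 1 of cbf1 medium, array 2 of wild-type medium in set 1, array 2 of bur2 medium, array 2 of cho2 medium, or either array of wild-type medium in set 2 (limma, adjusted p between 0.054 and 0.0857). In the Mpp10 complex, which holds the U3 RNA on the precursor, IMP3 averaged 0.44 ± 0.022 (0.28 to 0.62, median 0.42) and IMP4 averaged 0.25 ± 0.018 (0.092 to 0.36, median 0.27). Both were called (limma, adjusted p = 4.82e-07 and 4.20e-06). Within UTP-B, UTP6 had the highest mean at 0.34 ± 0.023, ranging from 0.18 to 0.50 with a median of 0.33 (limma, adjusted p = 2.23e-06). UTP22, of UTP-C, lay between -0.12 and 0.063 with a median of -0.0027 and a mean of -0.010 ± 0.011 (limma, adjusted p = 0.434). Its 95% interval of -0.036 to 0.015 held 0, and UTP22 was the one gene of the 60 with a mean below 0. With loess per print tip or the authors' deposited log2 table in place of the values used here, UTP22 was called lower, at -0.041 and -0.033 (limma, adjusted p = 0.00820 and 0.0212).

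The UTP-A complex, which joins the nascent precursor first, held genes of unlike level. UTP9, UTP5 and UTP4 had means of 0.28, 0.28 and 0.26, and each lay above 0 on all 12 arrays. UTP10, UTP8 and UTP15 had means of 0.052, 0.043 and 0.037, and each had arrays on both sides of 0. UTP9 ranged from 0.069 to 0.44 with a median of 0.30 and was called (0.28 ± 0.020, limma, adjusted p = 4.25e-06), while UTP15 ranged from -0.065 to 0.12 with a median of 0.043 and was not (0.037 ± 0.021, limma, adjusted p = 0.156). UTP15 was called higher with print-tip loess (0.056), with the deposited log2 table (0.062) and without array 1 of the wild-type medium of set 1 (0.056). UTP8 passed the limit by little (limma, adjusted p = 0.0473), and UTP10 did not pass it (limma, adjusted p = 0.158), both named after their values were seen.

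The snoRNP proteins also differed in level within a complex, with means from 0.042 to 0.42 in box H/ACA and from 0.034 to 0.15 in box C/D. Among the box H/ACA proteins, NHP2 ranged from 0.20 to 0.64 with a median of 0.44 and a mean of 0.42 ± 0.022 (limma, adjusted p = 5.84e-07). NOP10, the smallest protein of that particle, ranged from -0.16 to 0.25 with a median of 0.026 and a mean of 0.042 ± 0.023 (limma, adjusted p = 0.141). Of the box C/D proteins, NOP56 averaged 0.15 ± 0.022 (0.026 to 0.32, median 0.11; limma, adjusted p = 0.000317) and its paralogue NOP58 averaged 0.034 ± 0.016 (-0.14 to 0.20, median 0.032; limma, adjusted p = 0.0926). Thus NOP58, NOP10, UTP10, UTP15 and UTP22 were the 5 genes not called against the reference. All 5 had arrays on both sides of 0, and their median signals were 9.13 (UTP15) to 49.7 (NOP10) times background.

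Genes outside the 60 with the same work stood as high, and ribosomal protein genes did not. Of 89 further ribosome biogenesis genes measured, 82 were called higher and 2 lower than the reference, with a median of means of 0.31, and 71 lay above 0 on all 12 arrays. The highest of them, named here after their values were seen, were LRP1 (0.81), a partner of the exosome, and FCF2 (0.72), a protein of the 90S particle. The 2 called lower were SNU13 (-0.23), which is shared by box C/D snoRNPs and the spliceosome, and TIF6 (-0.099), which keeps 60S subunits from joining too early. RNA polymerase I subunits and factors had a median of means of 0.096 (9 of 15 called higher, 2 lower) and those of RNA polymerase III one of 0.17 (11 of 13 higher, 0 lower). Among 12 regulators of these genes and of growth, 3 were called higher and 5 lower. The highest were TOD6, a repressor of the biogenesis genes, at 0.32 and IFH1, an activator of ribosomal protein genes, at 0.22. Those called lower included DOT6 (-0.10) and RAP1 (-0.092), and SFP1 (0.0035) and FHL1 (0.0017) were not called. All of these regulators were singled out after their values were seen, and they showed no common direction. The 128 cytosolic ribosomal protein genes had a median of means of -0.028, with 29 called higher and 53 lower. Their median signal was 237 times background, against 5.05 times over all gene probes. Loess within each array brings the ratios toward 0 at each intensity, and these genes lay at the bright end. How far this set their values was not tested, so their contrast with the biogenesis genes holds for the normalised ratios only.

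Whether a deletion strain's medium changed these genes was asked of each medium against the wild-type medium of its set. None of the 60 genes was called in cbf1, npl3, bur2 or cho2 medium, and neither was any other gene probe (limma, 0% of 6388 in each comparison). At an unadjusted p under 0.05 there were 2, 3, 0 and 0 of the 60, against 85, 181, 242 and 126 of all gene probes. The median difference of the 60 genes was 0.036 in cbf1 medium (56 genes higher), 0.084 in npl3 medium (60 higher), -0.011 in bur2 medium (28 higher) and 0.021 in cho2 medium (34 higher), and the medians over all gene probes lay between -0.0016 and 0.00085. For all 60 genes in all 4 media both ends of the 95% interval were smaller than a 1.7-fold change, the fold limit used by the study. They were smaller than a 1.3-fold change for 58, 54, 60 and 57 genes in cbf1, npl3, bur2 and cho2 medium. The background offset of 50 used here draws ratios of dim spots toward 0, so these intervals bound the measured ratios.

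In set 1 the sign of the difference turned with the array. Between arrays with the sample in Cy3, all 60 genes had higher ratios in cbf1 medium (median difference 0.15), and all 60 had higher ratios in npl3 medium (median difference 0.25) than in wild-type medium. Between arrays with the sample in Cy5, 10 of 60 were higher in cbf1 medium (median -0.070) and 7 of 60 in npl3 medium (median -0.079). Higher on both pairs were therefore 10 and 7 genes (16.7% and 11.7%), where 20.5% and 20.8% of all gene probes were. Both pairs of comparisons use the same 2 wild-type arrays, at medians of 0.21 and 0.44 against the reference. Without array 1 of the wild-type medium of set 1, the median difference of the 60 genes was -0.087 in cbf1 medium and -0.036 in npl3 medium, and without its array 2 it was 0.17 and 0.21. With that array 2 left out, 1 gene was called in npl3 medium, the helicase gene DBP9 (0.32, limma, adjusted p = 0.0425), where 0.564% of all gene probes were called. The high share of genes with a positive difference in set 1 thus rested on which of these wild-type arrays was used.

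**Figure D3:**
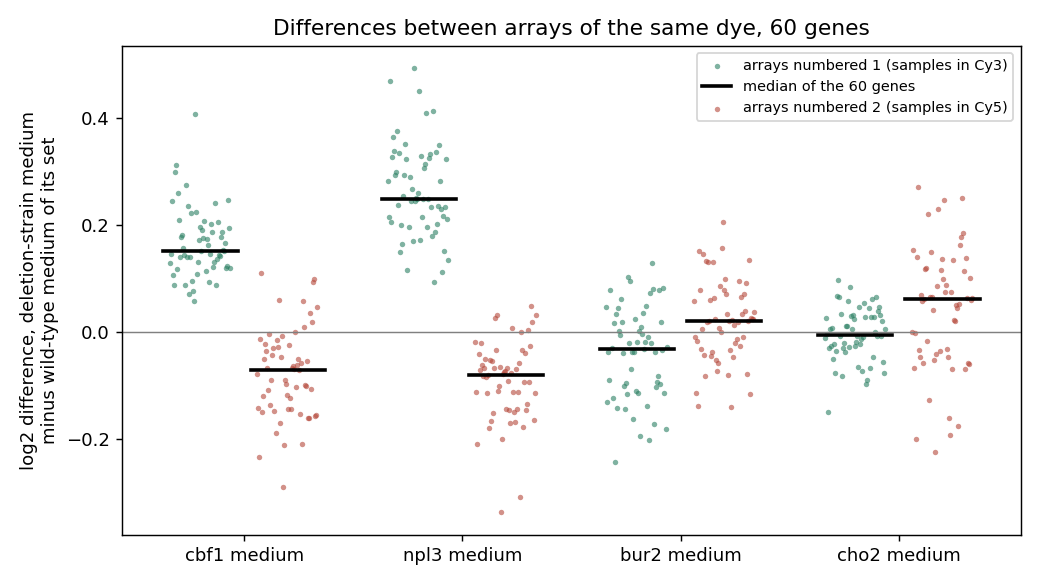
Log2 difference of each deletion-strain medium minus the wild-type medium of its set for the 60 genes (points), taken between arrays numbered 1 (green) and between arrays numbered 2 (red), with the median as a black bar. In cbf1 and npl3 medium all 60 points lie above 0 for array 1 (medians 0.15 and 0.25) and most lie below 0 for array 2 (medians -0.070 and -0.079), while the medians of bur2 and cho2 medium stay between -0.030 and 0.061.

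In set 2 the same array-by-array differences were small. Bur2 medium had medians of -0.030 (21 of 60 higher) and 0.022 (38 of 60 higher) between arrays 1 and between arrays 2, and cho2 medium had -0.0047 (28 higher) and 0.061 (39 higher). Of the 60 genes, 12 were higher on both pairs for bur2 medium, where 25.6% of all gene probes were, and 19 for cho2 medium, where 23.2% were.

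Genes induced by environmental stress were lowest on the arrays of set 1 where the 60 genes were highest. Their median ratio over 42 genes was -0.16 and -0.21 in cbf1 medium, -0.37 and -0.24 in npl3 medium, and 0.030 and -0.35 in the wild-type medium of set 1. The arrays with the highest medians of biogenesis genes, array 1 of npl3 medium and array 2 of wild-type medium, were those with the lowest stress medians, and array 1 of wild-type medium was at the other end for both lists. In set 2 the stress medians were 0.013 and 0.027 in bur2 medium, 0.062 and 0.012 in cho2 medium, and 0.040 and 0.026 in wild-type medium. The part of the stress response in the biogenesis values was not tested.

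**Figure D4:**
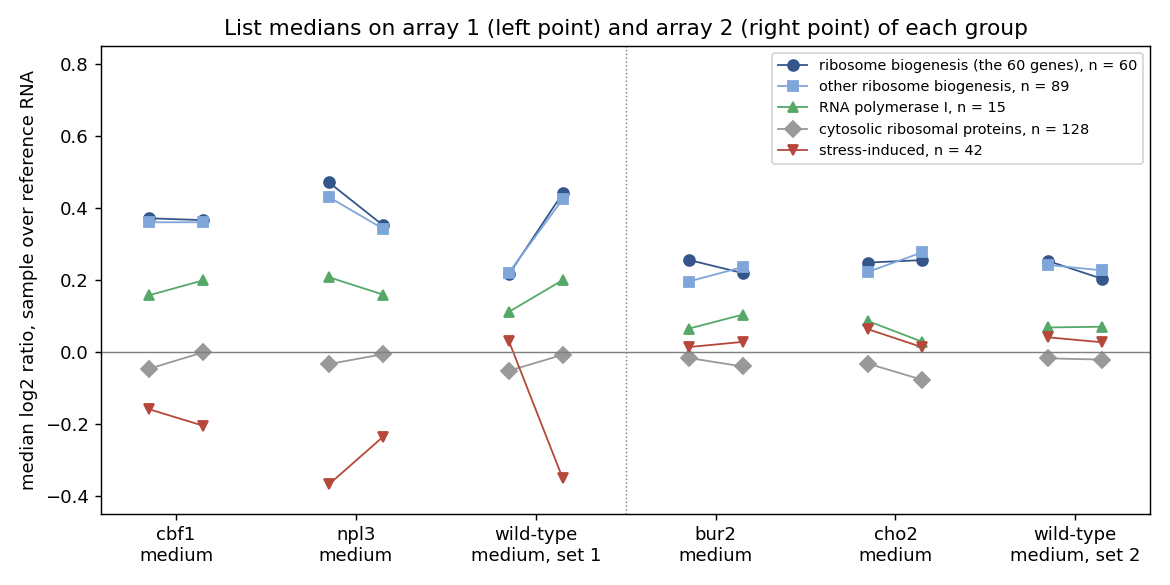
Median log2 ratio of sample over reference of 5 gene lists on array 1 (left point) and array 2 (right point) of each group. The 60 genes and the 89 other biogenesis genes lie together on every array, the stress-induced genes lie as low as -0.37 where they are highest in set 1, and the 128 ribosomal protein genes stay between -0.078 and -0.0017.

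The genes with the smallest p in the single media differed by 0.073 to 0.16 on the log2 scale, and none was called. CBF5, the pseudouridine synthase of box H/ACA snoRNPs, lay at 0.33 and 0.19 in cbf1 medium and at 0.39 and 0.16 in npl3 medium, against 0.10 and 0.13 in wild-type medium. All 4 values lay above both wild-type arrays. Both arrays lay above both wild-type arrays for 4 of the 60 genes in cbf1 medium and 7 in npl3 medium, where 5.09% and 7.37% of all gene probes did so. The differences were 0.14 ± 0.057 and 0.16 ± 0.057 (SE, 2 arrays per group; limma, adjusted p = 0.99955 and 0.99977). Without array 1 of wild-type medium they were 0.057 and 0.076, without its array 2 they were 0.23 and 0.25, and without array 1 of npl3 medium CBF5 differed there by 0.092. RRP9, a U3-specific protein of the 90S particle, lay at 0.36 and 0.40 in cbf1 medium and at 0.40 and 0.35 in npl3 medium, against 0.24 and 0.30 in wild-type medium. Here too the groups did not overlap, with differences of 0.11 ± 0.038 and 0.10 ± 0.038 (limma, adjusted p = 0.99955 and 0.99977), the npl3 difference being 0.057 without array 1 of npl3 medium. UTP22 lay at -0.000075 and -0.0080 in cbf1 medium, against -0.12 and -0.055 in wild-type medium, a difference of 0.083 ± 0.038. UTP5 lay at 0.31 and 0.29 in npl3 medium, against 0.079 and 0.27 in wild-type medium, a difference of 0.13 ± 0.052. That of UTP5 was 0.049 without array 1 of npl3 medium, 0.20 without its array 2 and 0.076 without array 1 of wild-type medium. CBF5, RRP9, UTP22 and UTP5 were higher on both pairs of arrays in cbf1 and npl3 medium. They were named for their small p in these same comparisons, which favours genes whose 2 pairs agree. Their agreement therefore does not set them apart from the rest of the 60.

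In set 2 the corresponding differences were no larger. RRP9 lay at 0.24 and 0.24 in bur2 medium, against 0.27 and 0.36 in wild-type medium, a difference of -0.074 ± 0.038 and thus of the other sign than in set 1. It was -0.025 with median centring and -0.039 without array 2 of wild-type medium. NOP58 lay at 0.042 and -0.012 in bur2 medium and at 0.047 and -0.022 in cho2 medium, against -0.020 and -0.14 in wild-type medium. Its differences of 0.096 ± 0.056 and 0.094 ± 0.056 were taken against the same wild-type arrays, and the cho2 values overlapped those of wild-type medium. In cho2 medium the difference of NOP58 was 0.015 with median centring and 0.049 with the deposited log2 table, and in bur2 medium it was 0.16 with that table. NOG2 lay at 0.54 and 0.66 in bur2 medium, against 0.46 and 0.59 in wild-type medium (0.073 ± 0.052, and 0.12 to 0.13 with print-tip loess, the deposited table or median centring). UTP4 lay at 0.32 and 0.32 in cho2 medium, against 0.32 and 0.071 in wild-type medium (0.13 ± 0.075), and NOP9, an RNA-binding protein of the small subunit pathway, at 0.33 and 0.27 in cho2 medium, against 0.30 and 0.048 in wild-type medium (0.13 ± 0.079). For UTP4 and NOP9 it was the second wild-type array that lay low, and without it the differences were 0.023 and 0.066. NOP9 differed by 0.065 with the deposited table and by 0.076 without array 2 of cho2 medium, and UTP4 by 0.053 with the deposited table, 0.079 with median centring, 0.077 without array 2 of cho2 medium and 0.23 without array 1 of wild-type medium. None of these genes was called (limma, adjusted p = 0.99933 for bur2 and 0.99979 for cho2).

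The other comparisons between media gave no call among the 60 genes either. Cbf1 medium against npl3 medium had a median difference of -0.035, with 9 genes higher, and of all gene probes 0% were called higher and 0.0313% lower (limma). NOP1, the methyltransferase of box C/D snoRNPs, lay at 0.050 and 0.24 in cbf1 medium, against 0.20 and 0.30 in npl3 medium (-0.11 ± 0.061), and BRX1, an early 60S factor, at 0.32 and 0.30 in cbf1 medium, against 0.47 and 0.36 in npl3 medium (-0.10 ± 0.072). Neither passed (limma, adjusted p = 0.99954 for both). Without array 1 of npl3 medium the differences were -0.021 for NOP1 and -0.0077 for BRX1, and without its array 2 they were -0.19 and -0.20. That of BRX1 was -0.061 without array 2 of cbf1 medium. Bur2 medium against cho2 medium had a median of -0.022, with 25 genes higher and 0% of all gene probes called (limma). UTP18, of UTP-B, lay at 0.098 and 0.23 in bur2 medium, against -0.0036 and 0.079 in cho2 medium (0.13 ± 0.050; limma, adjusted p = 0.578), and RRP15 at 0.54 and 0.57 in bur2 medium, against 0.70 and 0.73 in cho2 medium (-0.16 ± 0.075; limma, adjusted p = 0.623). RRP15 differed by -0.030 with the deposited log2 table and by -0.057 with median centring. UTP18 differed by 0.067 with that table, 0.22 with median centring and 0.081 without array 2 of cho2 medium. Over the 4 deletion-strain media together against the wild-type media of their sets, the median difference was 0.031, with 54 genes higher and 0% of all gene probes called (limma). CBF5 (0.099 ± 0.035) and RRP14 (0.079 ± 0.034) had the smallest p there (limma, adjusted p = 0.99899 for both). Without array 1 of the wild-type medium of set 1, CBF5 differed by 0.056 and RRP14 by 0.040, and the median over the 60 genes was -0.031.

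Between the experiment sets the 60 genes did differ. Cells of set 1 lay above those of set 2, relative to the same reference, for 58 of 60 genes, with a median difference of 0.14 (1.10-fold), against 0.0048 over all gene probes. Of the 60, 16 were called higher in set 1 and 0 lower (limma), where 5.28% of all gene probes were called higher and 4.6% lower. Without the dye term in the fit, 0 of the 60 were called (limma). For that fit and the other alternatives to this comparison, calls over all gene probes were not counted. Whether the counts moved for the 60 genes alone or across the array therefore cannot be told. The called genes were 10 of the 23 early 60S factors (CGR1, RRP15, RRP14, RLP7, NOP7, NOP4, RRP8, RRP1, BRX1 and MAK16), 3 of the 4 box H/ACA proteins (GAR1, NHP2 and CBF5), NOP1, IMP3 and the 60S GTPase gene NUG1. No gene of UTP-A, UTP-B, UTP-C or the other 90S and 40S factors was among them. Of these uncalled genes, RRP5 had means of 0.24 in set 1 and 0.028 in set 2, KRR1 0.52 and 0.32, and NSR1 0.42 and 0.22. These gaps, picked after their values were seen, were wider than that of the called CBF5 (0.22 and 0.086). Others were narrower, and UTP5 lay lower in set 1 (0.25 and 0.30). The calls thus do not show that the difference between the sets was confined to certain roles. By dye, the medians of the 60 genes were 0.35 in set 1 and 0.25 in set 2 for samples in Cy3, and 0.38 in set 1 and 0.22 in set 2 for samples in Cy5. For samples in Cy5, the 3 arrays of set 1 all lay above the 3 of set 2 for 42 of 60 genes (70%), where 20.3% of all gene probes did so. For samples in Cy3 this held for 11 of 60 genes (18.3%), close to the 17.7% of all gene probes, and the median of the 60 genes on the Cy3 array of wild-type medium in set 1 (0.21) lay below those of all 3 Cy3 arrays of set 2 (0.25 to 0.26). Stress-induced genes lay lower in set 1, with 19 of 42 called lower and a median of -0.27. The count of calls depended on single arrays: without array 1 of the wild-type medium of set 1 it was 42, without its array 2 it was 8, and it was 0 when array 1 of cbf1, npl3 or bur2 medium, array 2 of cho2 medium or array 2 of the wild-type medium of set 2 was left out.

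CGR1 differed most between the sets among the called genes. It ranged from 0.97 to 1.27 in set 1 with a median of 1.11, against 0.71 to 1.06 with a median of 0.79 in set 2, a difference of 0.27 ± 0.057 (SE, 6 arrays per set; limma, adjusted p = 0.0276). RRP15, an early 60S factor, had the smallest p, ranging from 0.76 to 0.98 with a median of 0.85 in set 1, against 0.54 to 0.73 with a median of 0.62 in set 2, a difference of 0.22 ± 0.043 (limma, adjusted p = 0.0218). RLP7, which resembles a ribosomal protein and helps to process the precursor, ranged from 0.45 to 0.71 with a median of 0.57 in set 1, against 0.31 to 0.39 with a median of 0.35 in set 2. RRP15, RLP7 and GAR1 were the 3 genes whose 6 arrays of set 1 all lay above the 6 of set 2, 5% of the 60, where 1.83% of all gene probes did so. GAR1, a core protein of box H/ACA snoRNPs, ranged from 0.27 to 0.52 with a median of 0.38 in set 1, against 0.061 to 0.26 with a median of 0.23 in set 2. For the other called genes the ranges of the sets overlapped. NUG1, for one, ranged from 0.10 to 0.53 with a median of 0.42 in set 1, against 0.059 to 0.26 with a median of 0.13 in set 2 (0.22 ± 0.048; limma, adjusted p = 0.0287).

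**Figure D5:**
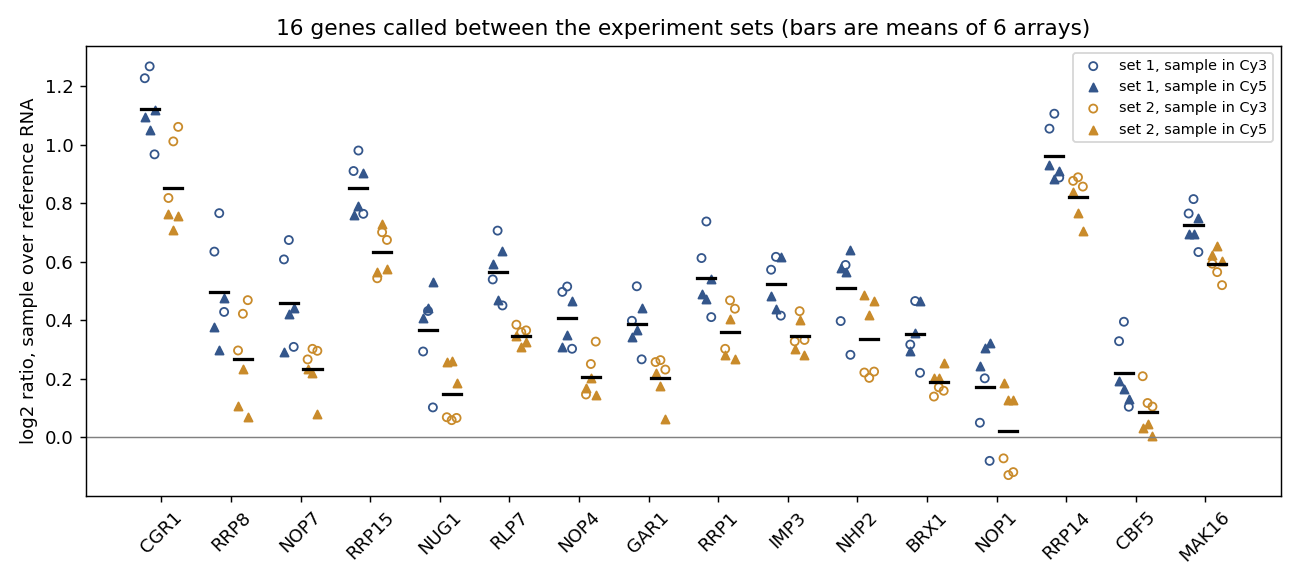
Log2 ratio of sample over reference on each array for the 16 genes called between the sets, with set 1 in blue at the left and set 2 in orange at the right of each pair, open circles for samples in Cy3, filled triangles for samples in Cy5 and bars for the means of 6 arrays. The points of the sets do not overlap for RRP15, RLP7 and GAR1, and array 1 of the wild-type medium is the lowest point of set 1 for most other genes.

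The remaining genes called between the sets differed by 0.13 to 0.23. RRP8, a methyltransferase of large subunit RNA, differed by 0.23 ± 0.060 and NOP7, a protein that joins subunit maturation to cell growth, by 0.22 ± 0.055. NOP4 differed by 0.20 ± 0.048, RRP1 by 0.18 ± 0.046, IMP3 by 0.18 ± 0.043, NHP2 by 0.17 ± 0.044, BRX1 by 0.17 ± 0.041, NOP1 by 0.15 ± 0.035 and RRP14 by 0.14 ± 0.032. CBF5 (0.13 ± 0.033, and 0.080 and not called with print-tip loess) and MAK16 (0.13 ± 0.035) had the smallest differences, and MAK16 passed the limit by little (limma, adjusted p = 0.0499). For comparison, the median of the 60 genes lay at 0.21 and 0.44 on the wild-type arrays of set 1.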

How the data were processed

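The 12 RNA samples described above were hybridised against a common wild-type reference on 2-colour spotted arrays by the authors, who scanned them and deposited spot intensity values, mean signal and local background for Cy5 and Cy3. The authors processed them with limma 2.12.0. Their series table of log2 values, deposited with scale and centring not stated, served as an alternative, with 1 column (cho2 medium, array 1) turned because it ran against its scanner values (r = -0.913, against 0.901 to 0.973 for the others). A deposited table of the authors' own comparisons (log2 ratios and adjusted p-values) was not used. No column matched no sample (0).

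Intensities were background-corrected here with normexp (offset 50) and normalised by loess within each array, control spots had weight 0 and were then left out, and the 2 duplicate spots of a probe were averaged as log2 sample over reference (R 4.3.3, limma 3.58.1). One model held the 6 groups and a dye term, with 5 residual and 3.29 prior degrees of freedom, two-sided tests and Benjamini-Hochberg adjustment over 6388 gene probes. The number of arrays limits the precision. The fit was tested on simulated data with 200 changed genes. The genes and lists were chosen with earlier results of these data known. Of 95 further biogenesis genes named, 89 matched a probe. Genes were named as the 3 of the 60 with the smallest p in each medium against wild-type medium, the 2 with the smallest p in the other 5 comparisons, the highest and lowest mean in each of the 8 role groups, and every gene called in a comparison between media or sets where at most 24 were. Alternatives changed 1 step each, namely each array left out, a replicate block, omission of the dye term, fits within 1 set, both spots of a probe entered separately, raw signals without subtraction of background, centring on the median or print-tip loess in place of loess, the authors' log2 values, and a fit without the dimmest 25% of probes. A block by scan or slide and a motif search in promoters were not run here.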

Additional observations from a re-analysis of the deposited data

Results flagged for a closer look

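The difference between the experiment sets drew attention because the same contrast, sample over reference, was tested between them with limma and differed for 16 of the 60 genes. All 16 were higher in set 1 than in set 2. On the log2 scale the differences were 0.27 for CGR1, 0.23 for RRP8, 0.22 for NOP7, 0.22 for RRP15, 0.22 for NUG1, 0.22 for RLP7 and 0.20 for NOP4. They were 0.19 for GAR1, 0.18 for RRP1, 0.18 for IMP3, 0.17 for NHP2, 0.17 for BRX1, 0.15 for NOP1, 0.14 for RRP14, 0.13 for CBF5 and 0.13 for MAK16. The set cannot be told apart from whatever else differed between the experiments, such as the median spot signals given above.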

How the results depend on the processing

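With 1 array left out at a time, the median difference of the 60 genes ranged from -0.087 to 0.17 in cbf1 medium, from -0.036 to 0.21 in npl3 medium, from -0.022 to 0.0088 in bur2 medium and from -0.000032 to 0.052 in cho2 medium. It ranged from -0.13 to 0.050 for cbf1 against npl3 medium, from -0.028 to -0.016 for bur2 against cho2 medium, and from -0.031 to 0.10 over the 4 media together. Left with 1 array, a group was assumed to vary like the others. Calls ranged from 0 to 1 in npl3 medium, from 53 to 59 against the reference (median 0.27 to 0.32) and from 0 to 42 between the sets (median 0.095 to 0.17), where 11 of 12 omissions moved the count by over 1.5 times: it was 3 without array 2 of cbf1 medium, 2 without array 1 of the wild-type medium of set 2, and 1 without array 2 of bur2 medium or array 1 of cho2 medium, beside the values given above.

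Calls between the sets numbered 10 with median centring, 37 with duplicate spots kept apart and 0 with no dye term. The share of all gene probes called between the sets was not counted in any alternative. Median centring also gave medians of 0.076 for bur2 against cho2 medium, 0.044 for bur2 medium and -0.013 for cho2 medium, and left 34 genes above 0 on all arrays. It turned NOP58 to -0.019 and NOP10 to -0.025 against the reference, and the deposited log2 table gave -0.0053 for NOP58, none of them called. The cause was not tested. No processing alternative gave a call among the 60 genes in a comparison between media (limma). The array number as a replicate block gave 54 calls against the reference and 16 between the sets. Each group has 1 array of each number, so this block could not change a difference or a median, only the errors. Deviations of same-numbered arrays correlated at 0.31 to 0.82, but the number coincides with the dye, and with the dye term removed the correlations were -0.47 to 0.54, so the arrays were not treated as paired.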
